A study of Gallus gallus with 21 samples.

Results

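In the retina of untreated chickens, 43 of the 18631 genes measured had their lowest mean level at 3 days and fell outside the heat shock, phototransduction, clock, channel, receptor, collagen and histone families that were left out by name. They were chosen from these same measurements: the mean at 3 days had to be under 0.77 times the mean at 1 day and under 0.77 times the mean at 6 days, and the highest of the 3 means had to reach 5 CPM, the reads of a gene scaled to the total of its library. In all, 67 genes met these limits, of which 20 were left out by their symbol and 4 as noncoding RNA. Among the 20, RSRP1, LONRF1, EHD4, RDH8, RBP4 and AHSA1 were left out as single genes rather than by family. RSRP1 had means of 135, 59.5 and 173 CPM at 1, 3 and 6 days. Because the level at 3 days chose the genes, that low level is described below without a test, and the counts given for pathway lists leave these genes out. The comparison of libraries by title letter was not used in the choice and was tested. That of 6 days with 1 day was also tested, although the choice used both of its means, if not their contrast.

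The birds were wild type White Leghorn chickens kept as controls under a standard light schedule, and the study they belong to is about the retinal response to optical defocus. The tissue is whole retina, with 7 libraries at each of 3 times. The start was postnatal day 3, and the times of 1, 3 and 6 days stand for collection on postnatal days 4, 6 and 9. Libraries were made from total RNA depleted of ribosomal RNA, with a kit that keeps the strand, and each carries a code that ends in R or L. The labels give no sex and do not say whether libraries came from separate birds, so p-values measure the spread between libraries, which may in part be technical.

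The vertebrate retina holds rods and cones, whose outer segments are modified cilia, interneurons, ganglion cells and Müller glia. Many of the genes below act in functions shared by all cells. The chaperone HSP90 folds kinases and nuclear receptors in a cycle that depends on partner proteins, among them immunophilins such as FKBP4 and activators of its ATPase. Protein turnover rests on ubiquitin ligases with exchangeable adaptors, and cilia grow from centrioles through a gate called the transition zone. Transcription factors such as ATF3 and kinases such as SGK1 are induced by stress and hormones in many tissues.

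Total depth, estimated from the step between low values, was 27.7 to 41.4 megareads per library, and the genes of the table took 29.9% to 34.2% of it. By age, that share was 29.87% to 31.92% at 1 day, 30.81% to 33.32% at 3 days and 32.89% to 34.17% at 6 days. The libraries at 1 and 6 days thus did not overlap in it. The part of this difference in the comparison of 6 days with 1 day was not tested. Transcripts of the female W chromosome were present in 3, 4 and 6 of the 7 libraries at 1, 3 and 6 days. Markers of cones summed to 1595 to 1922 CPM at 1 day, 1770 to 2162 CPM at 3 days and 1820 to 2176 CPM at 6 days. Markers of pigment epithelium summed to at most 41.2 CPM and those of muscle to at most 1.95 CPM in any library. Oligodendrocyte markers had median sums of 175, 145 and 152 CPM at 1, 3 and 6 days. Endothelial markers summed to 49.2 to 69.2 CPM at 1 day, 42.2 to 61.3 CPM at 3 days and 49.9 to 71.9 CPM at 6 days, with medians of 55.4, 49.6 and 60.6 CPM. Of its 3 genes tested, 0 were lower at 3 days than at 1 day and 1 was higher at 6 days than at 3 days, while CDH5, TEK, TIE1, VWF and ERG stayed under 0.5 CPM in every age group. The part of these cells in the results below was not tested. None of the 43 genes belonged to any of the 16 marker lists. In whole tissue, fewer cells of a type and less RNA per cell cannot be told apart.

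Over the 43 genes, the mean at 3 days was 0.336 to 0.769 of that at 1 day (median 0.704) and 0.147 to 0.764 of that at 6 days (median 0.675). Their highest means lay between 5.67 and 306 CPM, with a median of 29.0 CPM, beside 19.9 CPM for the 7367 genes that reached the floor of 5 CPM and were not left out by name or as noncoding RNA. All 43 passed the filter on low values, among 12614 genes tested. In 10 of the 43, every 3-day library lay below all 14 others, beside 0.293% of the genes tested. In 12 of 43 the 3-day libraries lay below all 7 at 1 day (0.499% of genes tested), and in 23 of 43 below all 7 at 6 days (3.65% of genes tested). The choice of genes used this same contrast, so nothing is read from these counts. The opposite shape, with the mean at 1 day and that at 6 days both under 0.77 times the mean at 3 days and the same floor, belonged to 62 genes after the same names were left out.

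**Figure D1:**
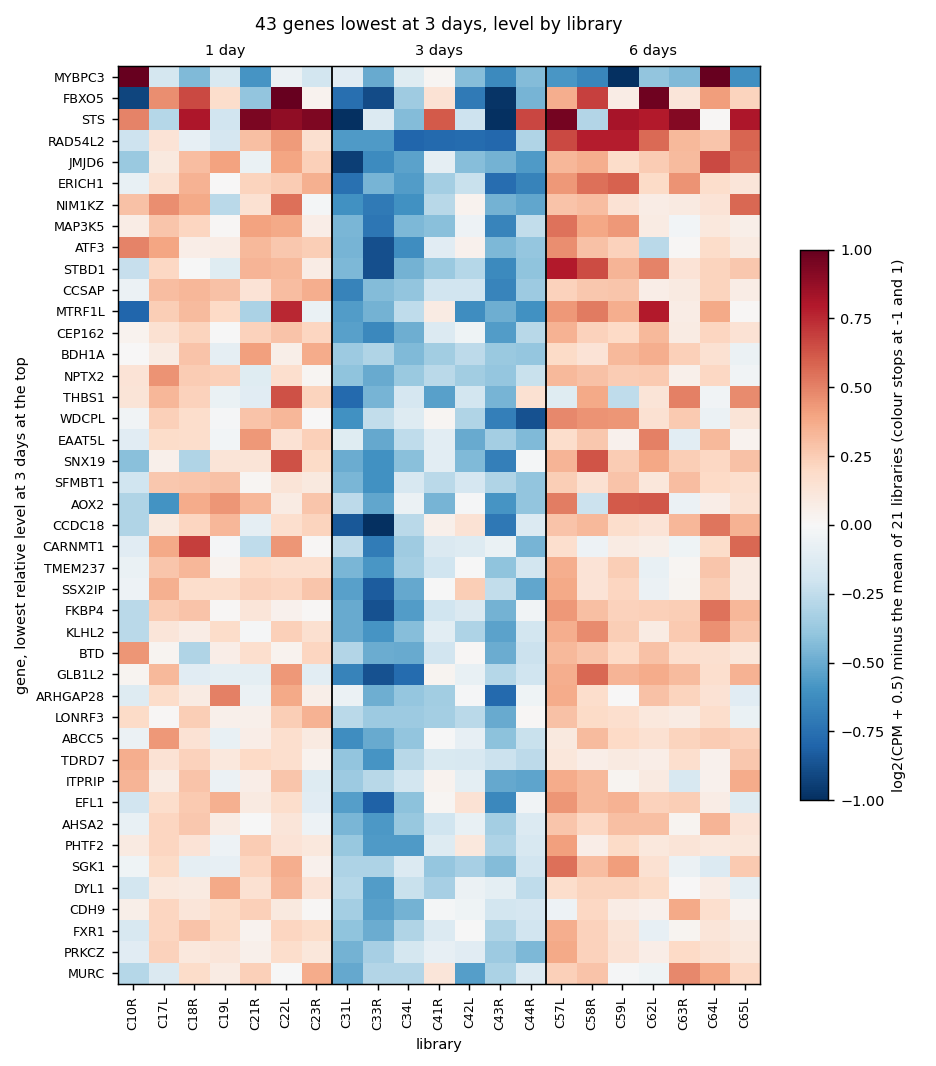
Level of each of the 43 genes (rows) in each of the 21 libraries (columns, by age), as log2(CPM + 0.5) minus the gene's mean over all libraries, with colour stopping at -1 and 1. The 3-day columns are mostly blue, C33R most deeply (median -0.55), while MYBPC3 at the top is raised in C10R and C64L alone.

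**Figure D2:**
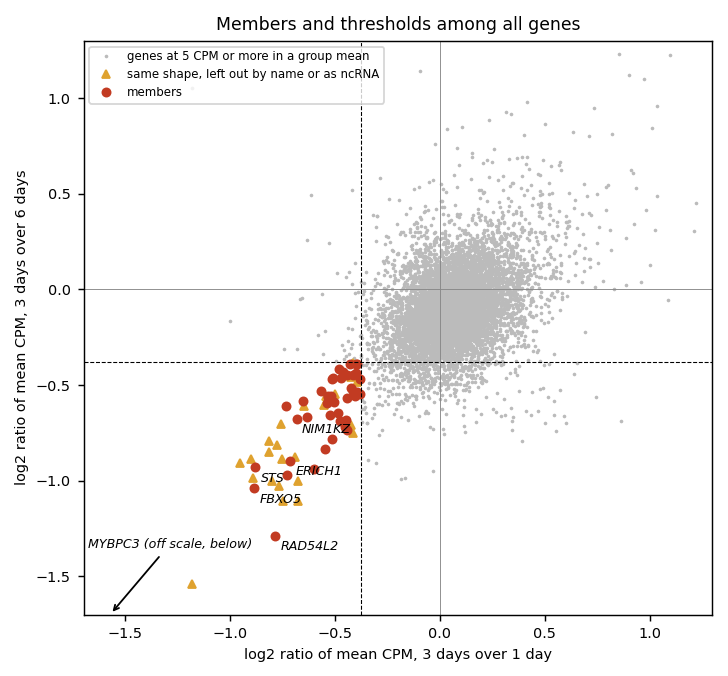
Mean CPM at 3 days over that at 1 day (horizontal) and over that at 6 days (vertical), both as log2 ratios, for genes with a group mean of at least 5 CPM. Dashed lines mark the ratio of 0.77, red points are the 43 genes (MYBPC3 lies below the frame), triangles the 24 genes left out by name or as noncoding RNA, and a few grey points fall outside the frame.

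Which age holds the lowest and the highest library of a gene follows in large part from the choice of genes. Those counts are given as description, and nothing is read from them. The lowest of all 21 libraries was a 3-day library for 40 of the 43 genes, a 1-day library for 2 and a 6-day library for 1. The highest was a 6-day library for 29 genes, a 1-day library for 14 and a 3-day library for 0. Within the 3-day group the libraries still differed. C33R held the lowest value of all 21 for 21 genes, while C41R and C42L were the highest 3-day libraries for 15 and 18 genes. Among the 1-day libraries C10R was the lowest for 23 genes, and at 6 days C57L was the highest of all 21 for 12. The coefficient of variation within an age had a median of 13% at 1 day, 15.8% at 3 days and 11.2% at 6 days.

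Partners of HSP90 come first. FKBP4, an immunophilin that binds HSP90 and takes part in steroid receptor complexes (chromosome 1, 75399374 to 75413495 of the build GRCg6a), had 37.7, 46.9 and 55.6 CPM in the lowest, median and highest library at 1 day, 24.6, 32.7 and 44.4 CPM at 3 days, and 53.4, 56.2 and 66.6 CPM at 6 days. AHSA2, a homologue of the activator of the HSP90 ATPase, had 10.7, 11.9 and 13.7 CPM at 1 day, 7.40, 8.82 and 10.7 CPM at 3 days and 11.5, 13.8 and 14.4 CPM at 6 days. For both, the 3-day libraries lay wholly below those at 6 days and overlapped those at 1 day. HSP90AA1, left out by name, had means of 557, 319 and 641 CPM at 1, 3 and 6 days.

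The list of chaperones and partners to which these belong has 36 other genes that were tested. Of these, 7 were lower and 2 higher at 3 days than at 1 day, beside 2.43% and 7.71% of all genes tested, and 18 were higher and 0 lower at 6 days than at 3 days, beside 17.4% and 4.93%. The median log2 change of the 36 was -0.07 in the first comparison, where all genes stood at 0.07, and 0.23 in the second, where all genes again stood at 0.07. The calls of this list and of those below were made on CPM without further scaling, and their dependence on the scaling was not tested. In 6 of the 36 both steps were called, beside 1.81% of genes tested. These were CCT4, CCT7 and CCT8 of the chaperonin that folds actin and tubulin, CHORDC1 and ST13, which bind HSP90 and HSP70 chaperones, and SERPINH1, the collagen chaperone. CCT4 had means of 23.5 ± 2.08, 18.2 ± 2.59 and 27.1 ± 2.51 CPM at 1, 3 and 6 days (SD, n = 7 each), and at a ratio of 0.774 it fell just outside the limit of 0.77. SERPINH1 had the deeper dip, 2.83 ± 0.894, 1.61 ± 0.379 and 3.93 ± 0.94 CPM, and lay under the floor of 5 CPM. FKBP5, another immunophilin of the list, did not share it: at 3 days it stood above 1 day (log2 change 0.52, SE 0.11, limma adjusted p = 0.00406).

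Genes of protein turnover and modification followed. KLHL2, an adaptor of cullin ubiquitin ligases, had 85.1, 112 and 121 CPM (lowest, median and highest library) at 1 day, 68.3, 76.6 and 95.4 CPM at 3 days and 109, 125 and 143 CPM at 6 days. LONRF3, a RING finger protein related to LONRF1, had 138, 156 and 174 CPM at 1 day, 96.2, 108 and 138 CPM at 3 days and 130, 154 and 168 CPM at 6 days. The 3-day libraries of KLHL2 overlapped those at 1 day alone, and those of LONRF3 overlapped both other ages through 1 library, C44R. JMJD6, a dioxygenase that hydroxylates lysine residues, had 4.71, 7.43 and 8.40 CPM at 1 day, 3.00, 4.15 and 5.82 CPM at 3 days and 7.15, 7.99 and 10.2 CPM at 6 days, with an overlap of 3 days and 1 day alone. Its interval overlaps MXRA7 on the same strand, a gene with means of 68.8, 77.3 and 84.2 CPM, so how their shared reads were divided is not known.

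Stress and signalling genes made up another group. MAP3K5, the kinase ASK1 that responds to oxidative stress, had 32.4, 37.5 and 42.8 CPM at 1 day, 19.4, 23.5 and 31.1 CPM at 3 days and 31.6, 34.7 and 47.2 CPM at 6 days. SGK1, a kinase induced by glucocorticoids and by salt and cell volume changes, had 48.9, 53.6 and 67.1 CPM at 1 day, 38.5, 41.9 and 47.2 CPM at 3 days and 47.4, 62.7 and 76.6 CPM at 6 days. In both genes all 3-day libraries lay below all others, by a margin of under 1 CPM. ATF3, a stress-induced transcription factor, had 4.84, 5.64 and 6.70 CPM at 1 day, 2.28, 3.24 and 4.74 CPM at 3 days and 3.74, 5.28 and 6.55 CPM at 6 days. Its 3-day libraries lay below all at 1 day and overlapped those at 6 days. THBS1, a secreted matrix glycoprotein, had 7.87, 10.1 and 13.6 CPM at 1 day, 4.81, 6.10 and 9.58 CPM at 3 days and 7.13, 9.41 and 12.4 CPM at 6 days, and its ages overlapped.

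The lists that hold these genes are given without them, to be read against the shares of all genes above (2.43% lower and 7.71% higher at 3 days than at 1 day, 17.4% higher and 4.93% lower at 6 days than at 3 days). Of 17 tested glucocorticoid targets other than SGK1, 0 were lower and 5 higher at 3 days than at 1 day, while 2 were higher and 3 lower at 6 days than at 3 days. PDK4 of that list, a kinase that restrains pyruvate oxidation, had means of 20.7, 42.6 and 21.9 CPM at 1, 3 and 6 days, the reverse of SGK1. Of 18 tested immediate early genes other than ATF3, the class induced within minutes of a stimulus, 2 were lower and 1 higher at 3 days than at 1 day, 2 were higher and 0 lower at 6 days than at 3 days, and 0 were called in both steps of the dip. Of 19 other genes of the amino acid stress response, 1 was lower and 1 higher in the first comparison, and 4 were higher and 1 lower in the second. The lower one was PSPH, an enzyme of serine synthesis, at means of 2.06, 1.10 and 2.12 CPM. Of 30 matrix genes other than THBS1, 0 were lower and 1 higher in the first comparison, and 2 were higher and 1 lower in the second. The remaining 19 of 24 pathway lists hold none of the 43 genes.

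NIM1KZ and PRKCZ are kinases as well. NIM1KZ, whose symbol is that of a kinase related to AMPK, had 35.3, 52.3 and 62.6 CPM at 1 day, 25.9, 29.7 and 43.7 CPM at 3 days and 44.9, 47.1 and 63.6 CPM at 6 days. It lies on chromosome Z (13642221 to 13655187) and overlaps HMGCS1 on the other strand, which had means of 59.8, 78.3 and 67.9 CPM. PRKCZ, an atypical protein kinase C of cell polarity, had 63.9, 74.96 and 81.4 CPM at 1 day, 49.8, 54.95 and 65.5 CPM at 3 days and 72.5, 77.1 and 90.4 CPM at 6 days and sat at the edge of the rule with a 3-day to 1-day ratio of 0.768.

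Several genes of centrioles, spindles and cilia shared the pattern. CEP162, which tethers transition zone proteins to the axoneme (chromosome 3, 77469266 to 77516767), had 61.1, 71.1 and 74.9 CPM at 1 day, 39.0, 43.6 and 59.4 CPM at 3 days and 64.8, 71.2 and 78.2 CPM at 6 days. CCSAP, a protein of centrioles, cilia and spindles (chromosome 3, 40064923 to 40077436), had 65.6, 84.6 and 88.1 CPM at 1 day, 42.8, 51.8 and 59.98 CPM at 3 days and 71.7, 79.8 and 82.9 CPM at 6 days. In both, every 3-day library lay below every other. TMEM237, a transition zone protein, had means of 36.7, 26.4 and 36.4 CPM at 1, 3 and 6 days, SSX2IP, a centrosome protein, 49.9, 35.0 and 48.2 CPM, and CCDC18, a protein of centriolar satellites, 9.31, 6.70 and 10.8 CPM. The list of 41 tested cilium and transport genes holds none of these. In it 1 gene was lower and 4 higher at 3 days than at 1 day (2.43% and 7.71% of all genes), and 8 were higher and 5 lower at 6 days than at 3 days (17.4% and 4.93%). The 1 lower at 3 days was CEP164, of the centriole's distal appendages, at 197, 148 and 191 CPM.

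Among genes of nucleus and RNA, RAD54L2 had the deepest dip relative to 6 days apart from MYBPC3. This chromatin remodelling ATPase of the SNF2 family (chromosome 12, 3080212 to 3119539) had 8.36, 10.7 and 13.2 CPM at 1 day, 5.39, 5.49 and 7.80 CPM at 3 days and 11.9, 14.8 and 17.1 CPM at 6 days, with all 3-day libraries below all others. SFMBT1, a chromatin protein with MBT repeats, had 4.81, 6.15 and 6.95 CPM at 1 day, 3.50, 4.45 and 4.97 CPM at 3 days and 6.08, 6.51 and 7.06 CPM at 6 days. FXR1, an RNA-binding protein related to FMRP, had 73.8, 94.6 and 101 CPM at 1 day, 58.5, 67.0 and 82.3 CPM at 3 days and 78.2, 89.7 and 107 CPM at 6 days, with overlap of the ages. TDRD7, a protein of RNA granules known for its role in the mammalian lens, had medians of 20.3, 14.9 and 19.2 CPM at 1, 3 and 6 days, and EFL1, a GTPase of ribosome maturation, 27.8, 18.4 and 29.4 CPM. The 3-day libraries of TDRD7 did not overlap those of either other age, and those of SFMBT1 overlapped 1 day alone.

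FBXO5 and MTRF1L, neighbours on the minus strand of chromosome 3, varied together. FBXO5, also called EMI1, inhibits the anaphase-promoting complex (49696700 to 49702870), and MTRF1L is a release factor of mitochondrial translation (49705184 to 49719456), with 2314 bases and 0 genes of the table between them. FBXO5 had 3.35, 7.71 and 15.4 CPM at 1 day, 3.19, 3.97 and 7.56 CPM at 3 days and 7.18, 8.89 and 13.8 CPM at 6 days. MTRF1L had 4.64, 9.76 and 14.6 CPM at 1 day, 5.29, 5.85 and 8.96 CPM at 3 days and 8.50, 11.1 and 15.0 CPM at 6 days. For both, the lowest 1-day library was C10R, the highest C22L, and the highest 3-day and 6-day libraries were C41R and C62L. The ages overlapped. In libraries with W-linked transcripts alone, the 3-day mean was 0.798 of the lower of the others for FBXO5 and 0.836 for MTRF1L, above the limit. In those without, which hold 1 library at 6 days, it was 0.459 and 0.655. Missing the limit was not particular to this pair: 30 of the 43 genes met the rule in libraries with W-linked transcripts alone. THBS1, at 0.832, was also above the limit there.

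Metabolic enzymes and transporters included STBD1, which binds glycogen, and BDH1A, whose symbol is that of a mitochondrial 3-hydroxybutyrate dehydrogenase. STBD1 had 27.8, 34.5 and 41.5 CPM at 1 day, 17.6, 23.8 and 26.7 CPM at 3 days and 36.0, 41.6 and 57.1 CPM at 6 days. BDH1A had 20.1, 22.8 and 28.7 CPM at 1 day, 15.7, 16.6 and 17.8 CPM at 3 days and 20.6, 24.7 and 27.8 CPM at 6 days. Neither overlapped another age at 3 days, and the 3-day libraries of BDH1A had the smallest spread of the 43 genes (coefficient of variation 4.09%). ABCC5, an exporter of cyclic nucleotides and other organic anions, was the most abundant of all, with 251, 281 and 356 CPM at 1 day, 172, 200 and 263 CPM at 3 days and 283, 308 and 328 CPM at 6 days. AOX2, an aldehyde oxidase that overlaps AOX1 on the same strand, had medians of 6.17, 3.69 and 5.63 CPM.

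Genes of synapse and neuron were few. NPTX2, a secreted pentraxin that clusters AMPA receptors, had 49.9, 61.1 and 74.3 CPM at 1 day, 38.2, 41.97 and 46.5 CPM at 3 days and 53.1, 64.8 and 68.0 CPM at 6 days, with every 3-day library below every other. EAAT5L, whose symbol is that of a glutamate transporter, had 4.84, 6.05 and 7.29 CPM at 1 day, 3.56, 4.06 and 4.88 CPM at 3 days and 4.89, 6.02 and 7.71 CPM at 6 days. CDH9, a cadherin of synaptic specificity, had medians of 9.73, 7.80 and 9.42 CPM at 1, 3 and 6 days. The 3-day libraries of CDH9 lay below all at 1 day and overlapped 6 days, while those of EAAT5L lay below all at 6 days and overlapped 1 day.

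Of the genes without a place in these groups, ERICH1, a glutamate-rich protein, was among the most abundant. It had 212, 261 and 286 CPM at 1 day, 132, 151 and 191 CPM at 3 days and 242, 301 and 335 CPM at 6 days, and every 3-day library lay below every other. ARHGAP28, a GTPase-activating protein, had 86.2, 99.5 and 134 CPM at 1 day, 54.8, 73.8 and 93.4 CPM at 3 days and 87.2, 107 and 122 CPM at 6 days. WDCPL had 37.7, 43.7 and 48.7 CPM at 1 day, 20.9, 31.2 and 39.1 CPM at 3 days and 37.2, 46.6 and 54.1 CPM at 6 days. In both of these, the 3-day libraries overlapped both other ages. SNX19, a sorting nexin, had 4.29, 6.51 and 9.44 CPM at 1 day, 3.49, 4.23 and 5.84 CPM at 3 days and 6.88, 7.36 and 9.41 CPM at 6 days, where 3 days overlapped 1 day alone. MURC, a protein of caveolae in muscle, had 4.14, 5.50 and 6.82 CPM at 1 day, 3.38, 4.13 and 5.65 CPM at 3 days and 5.00, 6.199 and 7.43 CPM at 6 days, with overlap of the ages, and stood nearest to the limit, with a 3-day to 1-day ratio of 0.769. Of the 43 genes, 13 fell outside the rule for named genes, with ratios of the 3-day mean to the lower of the others between 0.713 and 0.764 and highest means of 6.17 to 58.7 CPM.

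**Figure D3:**
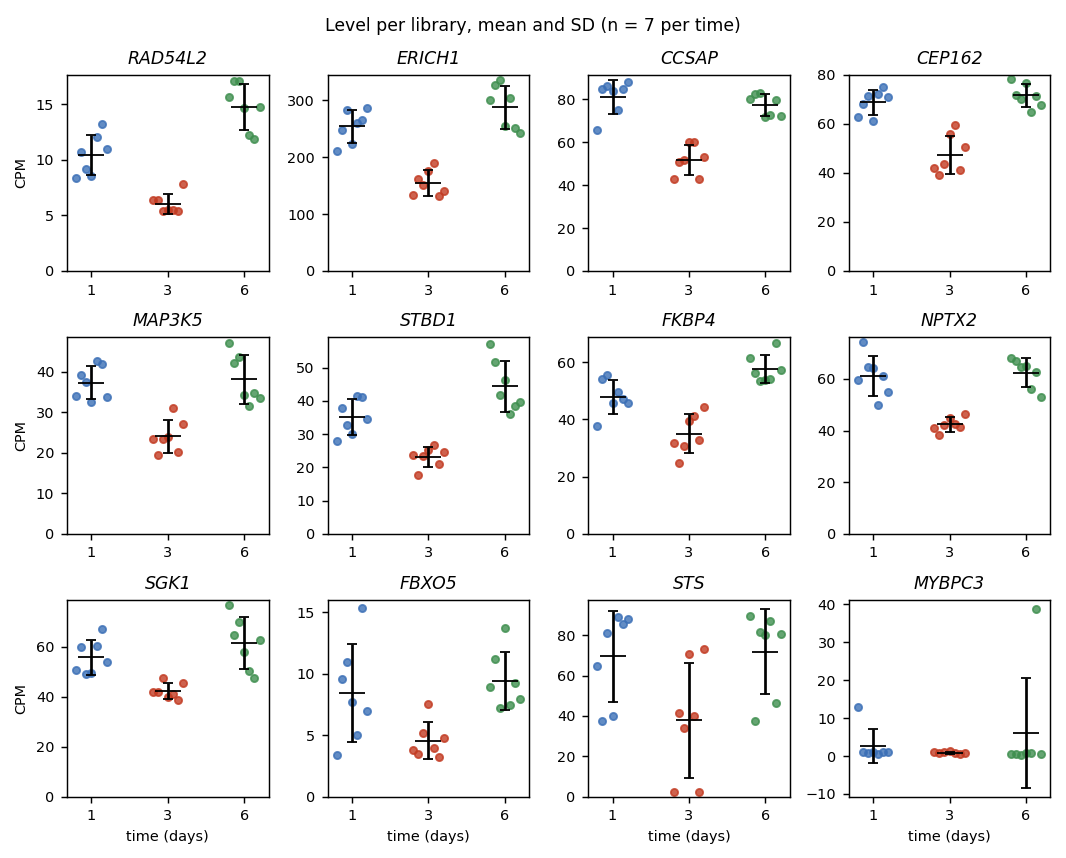
CPM in each library (points) of 12 of the genes at 1, 3 and 6 days, with the mean and SD of 7 libraries (black). The 3-day points of RAD54L2, ERICH1, CCSAP, CEP162, MAP3K5, STBD1, NPTX2 and SGK1 lie below all others, those of FKBP4 overlap 1 day, those of FBXO5 overlap both other ages, STS falls in 3 bands, and MYBPC3 is high in 1 library at 1 day and in 1 at 6 days.

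MYBPC3 met the rule through 2 libraries alone. This gene of the heart's thick filament had 0.639, 1.02 and 13.0 CPM at 1 day, 0.604, 0.774 and 1.23 CPM at 3 days and 0.359, 0.643 and 38.7 CPM at 6 days. C10R held the 13.0 CPM and C64L the 38.7 CPM, and without them the means were 0.935, 0.892 and 0.629 CPM at 1, 3 and 6 days. By group medians, the level at 3 days was 1.20 times the lower of the others. ACTA1, MYL1, TNNT3 and DES, defining genes of muscle, stayed under 0.5 CPM in every age group, and the muscle list summed to 0.658 to 1.63 CPM at 1 day, 0.736 to 1.95 CPM at 3 days and 0.673 to 1.45 CPM at 6 days. The smallest value of MYBPC3 stood for about 13 reads, while every other of the 43 genes had about 75 or more in each library.

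STS, the steroid sulfatase (chromosome 1, 127707646 to 127827227), had 37.6, 81.2 and 89.1 CPM at 1 day, 2.22, 39.8 and 73.5 CPM at 3 days and 37.5, 80.9 and 89.8 CPM at 6 days, and fell into 3 bands that cut across age. It had 2.22 and 2.39 CPM in 2 libraries, both at 3 days (C43R and C31L), about 34 to 46.4 CPM in 7 libraries, and 64.97 to 89.8 CPM in 12. The middle band held 2, 3 and 2 libraries at 1, 3 and 6 days and the highest band 5, 2 and 5. The mean at 3 days was 0.780 of the lower of the others in libraries with W-linked transcripts alone, above the limit, and 0.220 in those without, which include both of the lowest. The level of W-linked transcripts as a covariate did not pass the threshold for STS (limma adjusted p = 0.213).

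Of the 43 genes, 3 lie on chromosome Z, of which male birds carry a pair. NIM1KZ and CARNMT1, an enzyme that methylates carnosine, moved with the W-linked level (log2 change per log2 unit of -0.082 and -0.092, limma adjusted p = 0.00859 and 0.00873). TDRD7 did not pass (-0.026, limma adjusted p = 0.334). That level was -0.92 to -0.80 in libraries without W-linked transcripts and 3.21 to 3.30 in those with. The change per unit is thus only a part of the difference between these 2 sets of libraries. No other of the 43 genes passed for this covariate. How many of all genes, or of others on chromosome Z, passed was not counted. The calls of NIM1KZ and CARNMT1 are thus not read as particular to them. In libraries with W-linked transcripts, NIM1KZ averaged 41.5, 29.7 and 48.2 CPM at 1, 3 and 6 days (n = 3, 4 and 6), and in those without 57.4 and 34.02 CPM at 1 and 3 days (n = 4 and 3), with 63.6 CPM in the single one at 6 days. On both sides of this division the level of NIM1KZ was lowest at 3 days. The same values chose the gene, and 1 side has a single 6-day library, so nothing further is read from this.

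The comparison of 6 days with 1 day asks whether the level at 6 days was that of 1 day again. The choice set no direction between these ages, but it used both means and held each above the 3-day mean. It thus bears on the shares below, and nothing about the 43 genes as a set is read from them. The mean at 6 days lay within 10% of the mean at 1 day for 27 of the 43 genes and within 20% for 36. These counts were not taken over all genes, so nothing is read from them. The 6-day mean was the higher one for 31 of the 43. The log2 change from limma was above 0 for 31 of the 43, beside 9641 of the 12614 genes tested. By limma on log2(CPM + 0.5), 4 of the 43 genes, or 9.3%, were higher at 6 days than at 1 day at an adjusted p under 0.05, beside 30.0% of all genes tested. None of the 43 fell (0 with limma) at an adjusted p under 0.05, beside 2.57% of all genes tested. At an unadjusted p under 0.05, 6 of the 43 were higher and 0 lower. Of all 12614 genes, 5446 passed that unadjusted limit, with both directions counted together. The shares of all genes rest on the scaling: under median-of-ratios scaling 8.39% were higher and 8.47% lower, and under quantile normalization 8.17% were higher and 7.83% lower. W-linked transcripts were present in 3 of 7 libraries at 1 day and 6 of 7 at 6 days. With the W-linked level as a covariate, 2698 of all genes were higher, against 3779 without it. Of the 43, 3 were then higher. The median log2 change was 0.06 over the 43 genes, with a range of -0.12 to 0.49, and 0.14 over all 12614. A p that misses the threshold does not show equal levels: the 95% interval of a gene's change had a median width of 0.419 on the log2 scale.

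RAD54L2 rose the most, to 14.8 ± 2.09 CPM at 6 days, against 10.4 ± 1.83 CPM at 1 day (SD, n = 7 each; log2 change 0.49, SE 0.11, limma adjusted p = 0.00173). STBD1 rose to 44.4 ± 7.71 CPM at 6 days, against 35.1 ± 5.33 CPM at 1 day (0.33, SE 0.11, adjusted p = 0.0210). KLHL2 rose to 128 ± 11.8 CPM at 6 days, against 109 ± 12.1 CPM at 1 day (0.24, SE 0.08, adjusted p = 0.0288). FKBP4 rose to 57.6 ± 4.87 CPM at 6 days, against 47.9 ± 5.98 CPM at 1 day (0.27, SE 0.10, adjusted p = 0.0470). For each of these 4 genes, 7 of 7 libraries at 6 days lay above the 1-day mean, as they did for 9 of the 43 genes in all, and the ages overlapped library by library. The count of 9 was not taken over all genes, and nothing is read from it.

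These calls depend on the scaling. Under median-of-ratios scaling, where the median change over all genes was 0, RAD54L2 alone of the 4 kept its call, and with quantile normalization none did (RAD54L2 then at adjusted p = 0.0502). Leaving out 1 library at a time gave between 1 and 6 genes higher at 6 days: RAD54L2 alone without C10R or without C57L, RAD54L2 and STBD1 without C58R or without C64L, and 6 genes without C22L, where GLB1L2, MTRF1L and SNX19 came in and FKBP4 dropped out. RAD54L2 kept its call in 21 of 21 such fits, STBD1 in 19, KLHL2 in 17 and FKBP4 in 8. Over all 31 alternatives FKBP4 passed in 13. In those alternatives the adjusted p of RAD54L2 lay between 0.000908 and 0.0502, that of STBD1 between 0.0118 and 0.271, that of KLHL2 between 0.0157 and 0.512 and that of FKBP4 between 0.0104 and 0.493. At the other end, ATF3 had 5.19 ± 0.889 CPM at 6 days and 5.67 ± 0.68 CPM at 1 day, a log2 change of -0.12 with an interval of -0.38 to 0.13 (adjusted p = 0.461).

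**Figure D4:**
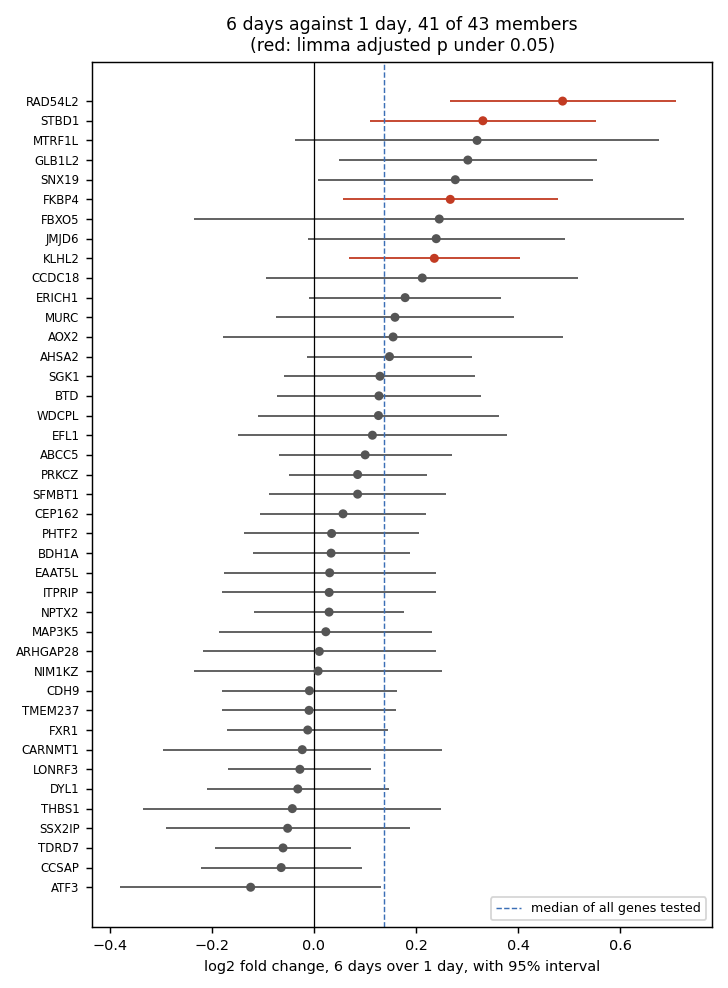
Log2 fold change of 6 days over 1 day with its 95% interval from limma, for 41 of the 43 genes (MYBPC3 and STS, whose intervals are several times wider, are left out). The 4 genes past the threshold are red, the dashed line marks the median of 12614 genes, 0.14, and most intervals span 0.

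By the letter that ends the title codes, none of the 43 genes differed between R and L libraries once age was allowed for (0 with limma adjusted p under 0.05, and 2 at an unadjusted p under 0.05), beside 0% of all 12614 genes tested, of which 349 had an unadjusted p under 0.05. The R minus L difference ran from -0.25 to 0.41 on the log2 scale over the 43 genes. The lowest unadjusted p belonged to MURC, at 0.0162, and ARHGAP28, at 0.0267, both with limma adjusted p = 0.9997.

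The rule used group means and set no correlation among libraries of the same age. It is not independent of such correlation, since what differs between libraries can also shift a group mean. The same holds for the genes left out by name, which met the same limits. With each age's mean subtracted, the 903 pairs of the 43 genes had a median Pearson correlation of 0.27 over the 21 libraries, with quartiles of 0.0853 and 0.472, and 21.8% of pairs lay over 0.5. Over all pairs of 7768 genes at 5 CPM or more, the median was 0.0656 and 6.47% lay over 0.5. These are descriptions, since only the mean of each age was subtracted. The genes share libraries, depth, the presence or absence of W-linked transcripts and any difference in RNA between libraries. The part of these was not tested. EFL1, FXR1, SSX2IP and CEP162 had the highest median correlation with the rest, 0.498, 0.486, 0.48 and 0.461, and MYBPC3 the lowest, -0.0943.

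The closest pair was FBXO5 with MTRF1L, at r = 0.929 (Spearman's rank correlation 0.852, and r = 0.857 without the 2 libraries farthest from the median). Next among the 43 were FXR1 with TMEM237 (r = 0.866), FKBP4 with TMEM237 (0.837), FKBP4 with AHSA2 (0.83) and MAP3K5 with STBD1 (0.823). Among the 43, RAD54L2 was closest to SGK1 (0.775), and its median with the rest was 0.143. Lower medians included those of BDH1A (0.0621) and EAAT5L (0.0754). With RDH8, left out by name, RAD54L2 stood at 0.726.

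Some genes of the same shape that were left out by name were as close, and others were not. FKBP4, for example, stood at -0.136 with RBP4, -0.052 with GUCA1C and 0.107 with RDH8. FKBP4 followed HSP90AA1, the inducible cytosolic HSP90 (r = 0.906, Spearman 0.874, 0.849 without the 2 libraries), and KLHL2 followed HSPA4 (0.88). CCSAP followed EHD4, a membrane-remodelling ATPase (r = 0.894, Spearman 0.782, 0.819 without the 2). NIM1KZ followed CNGA3, the cone channel subunit (r = 0.862, Spearman 0.9, 0.802 without the 2). CEP162, MAP3K5 and STBD1 followed the clock repressor PER2 at r = 0.856, 0.85 and 0.832. Median correlations over all 43 genes were taken for a few of the left-out genes only. These included 0.528 with HSP90AA1, 0.505 with LONRF1, 0.49 with PER2, 0.433 with CNGA3 and 0.392 with EHD4. Over all genes at 5 CPM or more these 5 medians lay between -0.0519 and 0.0399. With PDE6B, a rod phosphodiesterase of the same shape, the median was 0.11, beside -0.171 over all genes. Of the 43 genes, 4 lay over 0.5 with PDE6B (4.48% of all genes did), 24 with HSP90AA1 (8.59%) and 21 with PER2 (3.72%). PDE6B lies on chromosome Z, as do NIM1KZ (0.611) and TDRD7 (0.583) among its 4. GLB1L2 (0.564) and PHTF2 (0.557), also among them, do not. The part of W-linked transcripts in these correlations was not tested.

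**Figure D5:**
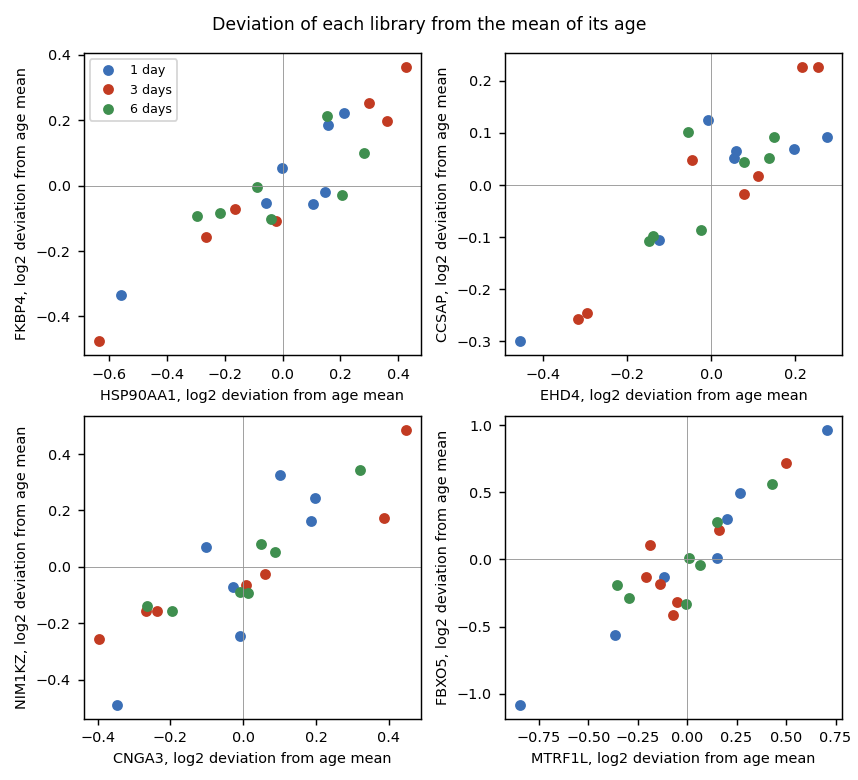
Log2 level of a gene in each of 21 libraries minus the mean of its age, plotted for FKBP4 against HSP90AA1, CCSAP against EHD4, NIM1KZ against CNGA3 and FBXO5 against MTRF1L, with points coloured by age. Libraries of all 3 ages lie along each diagonal, and the correlations are 0.906, 0.894, 0.862 and 0.929.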

How the data were processed

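The authors deposited 1 table of CPM values for 18631 genes and 21 libraries; an offset of 0.0001, the lowest value in each column, was subtracted. STAR, Partek and the build GRCg6a were used, per the submitters' processing notes. Neither tool versions nor the annotation, strand setting and treatment of reads shared by genes are given in the sources used here. Within a library, low values sat at multiples of a constant step (94.1% to 95.3% within 0.1 of a step), which gave the depths. Since some values did not come out as whole reads, no test on counts was run, and intervals and floors from counts are not given.

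Genes that reached 0.5 CPM in 7 or more libraries were tested with limma 3.58.1 in R 4.3.3 on log2(CPM + 0.5), a scale that understates changes of low genes, with 1 mean per age, a mean-variance trend and Benjamini-Hochberg adjustment over all 12614 genes. All p-values are two-sided, and "rose" is used of genes past an adjusted p of 0.05. The script was tested on simulated data. Ages come from the titles. The title letter was tested with age as a covariate.

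The genes and the pathway and marker lists were chosen with earlier results of these data known, so no pattern here is independent support for another. Values were given in full by rule for the 20 genes with the lowest ratio of the 3-day mean to the lower of the others, the 8 most abundant, up to 3 per list, those past the threshold between 6 days and 1 day, and those nearest the limit. Other genes, pairs and libraries were picked after their values were seen. Positions are those of the table. Chromosome names were matched for 15419 symbols in a RefSeq table of a different build. No paired fit was made. Promoter sequences were not analysed here. Alternatives were other thresholds and floors, group medians, pseudocounts of 0.05 and 2.5, filters, 2 other scalings, array weights, the 2 ages alone, the title letter or W-linked level as a covariate, and leaving out each library; the rule in libraries without W-linked transcripts was added after the data were seen.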

Additional observations from a re-analysis of the deposited data

Results flagged for a closer look

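Each of the 43 genes was examined at each age for a single library far from the other 6, by the gap to its nearest neighbour as a share of the group's range, against Dixon's 95% limit. Of 129 groups, 9 held such a library. The limit flags about 1 in 20 groups of independent, normally distributed values. These groups hold CPM without a log scale and share the same 21 libraries, and the rate of flags by chance in them was not estimated.

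MYBPC3 held both of the widest gaps, 12.97 CPM in C10R at 1 day and 38.71 CPM in C64L at 6 days, where the next library stood at 1.14 and 0.799 CPM. C44R was the highest 3-day library of RAD54L2, at 7.801 CPM, and of LONRF3, at 138.2 CPM. The next libraries stood at 6.40 and 114 CPM. At 6 days C65L was the highest for NIM1KZ, at 63.61 CPM, and for CARNMT1, at 13.33 CPM, both on chromosome Z, and C65L is the 1 library of that age without W-linked transcripts. SNX19 was highest at 6 days in C58R, at 9.406 CPM, PHTF2 at 6 days in C57L, at 65.7 CPM, and ABCC5 at 1 day in C17L, at 356.5 CPM. All 9 were the highest library of their group.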

How the results depend on the processing

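The number of genes was 43. It was 19 at a ratio of 0.70, 168 at 0.85, 83 with a floor of 1 CPM, 31 with a floor of 10 CPM, and 69 in the libraries without W-linked transcripts, a setting added after the data were seen. Leaving out 1 library at a time gave 39 (without C33R) to 55 (without C41R), and 27 of the 43 stayed in all 21 of these sets. Of the 43, 37 stayed with group medians, 35 with median-of-ratios scaling, 34 with quantile normalization, 30 in libraries with W-linked transcripts alone and 29 in those without. The number higher at 6 days than at 1 day, 4, was 1 with median-of-ratios scaling and 0 with quantile normalization, and 1 to 6 when 1 library was left out. Quantile normalization called 1 gene lower at 6 days than at 1 day, TDRD7, where the other settings called 0. The numbers lower at 6 days and differing by title letter were 0 with each library left out. MYBPC3 alone reversed: its 3-day mean stood at 1.202 times the lower of the others by medians, 1.056 and 1.326 in libraries with and without W-linked transcripts, and 1.419 without C64L, with 0.2983 as the lowest when 1 library was left out. Its place in the rule rests on C10R and C64L, and why these 2 libraries were high in MYBPC3 was not tested. Over the named genes and all alternatives, the change of 6 days against 1 day kept its side of the threshold in 897 instances, lost it in 30 and gained it in 2. No paired analysis was possible because the 3 ages share no number in their titles. Depth limits MYBPC3, ATF3 and other genes near 5 CPM most.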

Other observations

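By position, 10 of the 43 genes, or 23.3%, lie on chromosome 3, beside 8.76% of the 7367 genes that reached the floor and were not left out by name. They are AHSA2, ATF3, CCSAP, FBXO5, MTRF1L, MAP3K5, SGK1, CEP162, ERICH1 and WDCPL. Other chromosomes also departed from their share. Chromosome 24 held 4.65% beside 0.896%, chromosome 9 held 6.98% beside 2.93%, and chromosome 1 held 6.98% beside 14.4%. These were picked after the shares were seen and were not tested, so nothing is read from them. FBXO5 and MTRF1L are the 1 pair of the 43 with no other gene of the table between them, and the next closest on chromosome 3, MAP3K5 and SGK1, have 17 genes between them. Left-out genes of the same shape also lie near some of the 43. On chromosome 8, RDH8 ends at 14351136 and CCDC18 starts at 14351272. On chromosome 1, FKBP4 ends at 75413495 and the noncoding RNA LOC101748309 starts at 75413631. The genes span a median of 22382 bases, beside 25628 bases for the 7367.

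Outside the 43 genes, the list of 37 tested splicing and RNA-binding factors had 3 called at both steps, beside 1.81% of all genes tested. RBM5 had means of 123, 98.4 and 156 CPM at 1, 3 and 6 days, RBM39 51.2, 43.7 and 53.9 CPM, and TRA2A 54.6, 43.6 and 54.5 CPM. All 3 are splicing regulators. The calls of this list were also made on CPM without further scaling, and their dependence on it was not tested. In that list 3 were lower and 1 higher at 3 days than at 1 day (2.43% and 7.71% of genes tested), 28 were higher and 1 lower at 6 days than at 3 days (17.4% and 4.93%), and 26 were higher and 0 lower at 6 days than at 1 day (30.0% and 2.57%).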
